A study of Mus musculus with 7 samples.

Results

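The 8 genes described here, Actb, Actg1, Hprt, Tbp, Ppia, Ywhaz, Gusb and Sdha, are transcripts that laboratories often use to scale brain expression measurements, Gapdh apart. They were picked by symbol, with earlier results of these data known. All 8 were found among the 43626 genes of the deposited table and passed the filter on low values applied here. RNA sequencing had been applied to prefrontal cortex of male C57BL/6J mice at 8 weeks of age, 3 wild-type (WT) libraries and 4 of a genotype labelled hDISC1AA/+, written as a heterozygote and named for DISC1, a scaffold protein of neurons. The labels do not describe how the allele was made, name no treatment, and do not say that each library came from a separate mouse, so all p-values measure the spread between these libraries, which may in part be technical. Of the 4 hDISC1AA/+ columns, 3 carry a title from the labels (replicates 1, 3 and 4), and the remaining column matches its group but no title, and appears below as the unnumbered library.

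A reference gene is a transcript assumed to stay level between samples, so that another transcript can be expressed as a ratio to it. The genes in common use come from housekeeping processes that every cell runs: the actin cytoskeleton, protein folding, signalling adaptors, transcription by RNA polymerase II, purine recycling, lysosomal degradation and the citric acid cycle. In brain tissue a transcript can still differ with cell type, RNA quality and the way reads are assigned to it, which is why several such genes are usually compared with each other before one is chosen.

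Between 33512557 and 63845254 reads per library had been assigned to genes, with the highest number in WT replicate 1. All values are the normalized counts that the authors deposited, in which each library's reads are divided by its size factor. Neuronal markers (9 of 9) and cortical projection neuron markers (8 of 8) were above 0 in every library, as were the markers of the other cell types examined. A pair of libraries stood apart. In WT replicate 1 the summed normalized count of 8 oligodendrocyte markers was 137560.0 against 39161 to 50618 in the other 6, and that of 10 endothelial and mural markers was 4112 against 10342 to 13634. In hDISC1AA/+ replicate 1 mitochondrially encoded transcripts took 1.94% of the reads against 5.14% to 6.94% in the others, and a fit on transcript GC and length took up 0.358 of the variance among its genes, against 0.119 or less elsewhere. The same library had a sum of 942 for 4 choroid plexus markers, where the others had 124 to 208. That sum need not hold for each marker. Among the 3 tested, the coefficient of variation (SD divided by mean, over the 7 libraries) ran from 28.6% to 214%. For 5 meningeal fibroblast markers the sum in this library was 5868, where the others had 1596 to 3773. The sum of 7 blood markers was 2860 in WT replicate 1 and 18451 in hDISC1AA/+ replicate 1. It varied widely outside this pair too, from 4088 in hDISC1AA/+ replicate 3 to 17085 in WT replicate 3. In bulk tissue fewer cells of a type and less RNA per cell cannot be told apart.

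Among the cytoskeletal genes, Actb was one of the steadiest of the 8 and its paralog Actg1 one of the less steady. Actb encodes beta-actin, the main cytoplasmic actin of most cells, and lies on the minus strand of chromosome 5 (142903115 to 142906754 of GRCm38). It had 35381, 29116 and 31381 normalized counts in WT replicates 1 to 3. The hDISC1AA/+ values were 33847 (replicate 1), 30252 (unnumbered), 32718 (replicate 3) and 30199.7 (replicate 4). WT replicate 1 was highest and WT replicate 2 lowest, so that the WT libraries enclosed all 4 hDISC1AA/+ libraries (31959 ± 3172 and 31754 ± 1824, SD, n = 3 and 4). Actg1 encodes gamma-actin, the other cytoplasmic actin, and lies on the minus strand of chromosome 11 (120345690 to 120348542). It had 19062, 20744 and 22174 in WT, and 26528 (replicate 1), 19329 (unnumbered), 21731 (replicate 3) and 22925 (replicate 4) in hDISC1AA/+. A single library, hDISC1AA/+ replicate 1, lay above the rest, and the other 6 spanned 19062 to 22925 with both groups among them.

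The coding sequences of these actins share identical stretches, and a read lying wholly inside one would fit both. Whether reads did so was not tested. They were compared base by base, taken from the annotated transcripts of GENCODE M21 (GRCm38). Of 1125 coding bases 997 were identical (88.6%), and the longest identical run was 62 bases, from coding base 889 to 950 counted from the start codon. The first 90 coding bases are shown because they hold 16 differences, which are the capitals:
Actb: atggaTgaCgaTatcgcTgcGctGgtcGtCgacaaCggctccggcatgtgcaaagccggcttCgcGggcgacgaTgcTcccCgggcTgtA
Actg1: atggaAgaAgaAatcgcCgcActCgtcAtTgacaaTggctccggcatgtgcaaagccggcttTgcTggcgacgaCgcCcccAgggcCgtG
The longest run that the pair share, in which the letters do not tell them apart, is given for contrast:
Actb and Actg1: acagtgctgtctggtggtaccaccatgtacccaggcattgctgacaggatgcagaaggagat
Actg1 also has processed pseudogenes, intronless copies of its messenger RNA elsewhere in the genome. The copy with most reads, Gm12715, differs from the Actg1 coding sequence at 4 of 1125 bases (T858C, G861T, T864C and G1002A, Actg1 base first, counted from the start codon). It is shown around the first 3 of these, which are the capitals:
Actg1, coding bases 828 to 887: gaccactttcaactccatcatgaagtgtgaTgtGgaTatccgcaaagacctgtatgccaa
Gm12715: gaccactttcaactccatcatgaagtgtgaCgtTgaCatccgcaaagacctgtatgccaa
The pseudogenes of Actg1 took 1.76% to 2.95% of the joint reads of Actg1 and its copies, highest in WT replicate 1 (2.95%, 95% Wilson interval 2.76% to 3.14%). Adding them to Actg1 left its variation over the 7 libraries nearly as before (coefficient of variation 11.6% alone and 11.4% with copies). Intervals of read shares here and below cover counting error only.

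Ppia was the most variable of the 8. It encodes cyclophilin A, an abundant cytosolic prolyl isomerase that helps proteins fold and is the target of ciclosporin, and lies on the plus strand of chromosome 11 (6415443 to 6419817). It had 14093, 20639 and 22400 normalized counts in WT, and 27444 (replicate 1), 22964 (unnumbered), 21657 (replicate 3) and 16563 (replicate 4) in hDISC1AA/+. The lowest and the highest library differed 1.95-fold, with WT replicate 1 and hDISC1AA/+ replicate 4 low, hDISC1AA/+ replicate 1 high, and the groups overlapping (19044 ± 4377 and 22157 ± 4478, SD, n = 3 and 4).

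Ppia shares its coding sequence with a processed pseudogene, Gm10123, and the reads assigned to the pair were divided differently in each library. Gm10123 lies on chromosome 9 (96895658 to 96896147 of GRCm38, plus strand), and its 490 bases match the first 490 of the 492 coding bases of Ppia with 0 differences. A stretch from the middle is printed to show that no letter separates the parent from the copy, so there are no capitals:
Ppia, coding bases 217 to 276: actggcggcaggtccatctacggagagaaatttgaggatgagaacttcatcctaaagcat
Gm10123: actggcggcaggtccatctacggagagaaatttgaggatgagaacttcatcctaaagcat
Gm10123 had 5996, 3022 and 1207 normalized counts in WT replicates 1 to 3. The hDISC1AA/+ values were 1334 (replicate 1), 1699 (unnumbered), 2186 (replicate 3) and 6079.8 (replicate 4). The 2 libraries with most Gm10123 were thus the 2 with least Ppia. As a share of the reads of both, Gm10123 took 29.8% in WT replicate 1 (95% Wilson interval 29.3% to 30.4%) and 26.9% in hDISC1AA/+ replicate 4 (26.3% to 27.4%). The other 5 libraries had 4.63% to 12.8%, lowest in hDISC1AA/+ replicate 1, and the shares did not follow genotype.

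Counted together, parent and copy were steadier than Ppia alone. The sum of Ppia and Gm10123 was 20089, 23661 and 23607 in WT, and 28777 (replicate 1), 24663 (unnumbered), 23843 (replicate 3) and 22643 (replicate 4) in hDISC1AA/+. Its coefficient of variation was 10.9%, against 21% for Ppia and 68.7% for Gm10123. In all, 18 annotated pseudogenes matched the Ppia transcript at 95% identity or more over at least 100 bases, 11 of them are in the table and 9 held reads. With all of them added the coefficient of variation of Ppia was 10.6%, and hDISC1AA/+ replicate 1 was still the highest library. This sum was examined after the values of the copies had been seen. How reads with several matching places were handled is not given in the sources used here, so how reads came to be divided between Ppia and its copies was not tested.

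**Figure D1:**
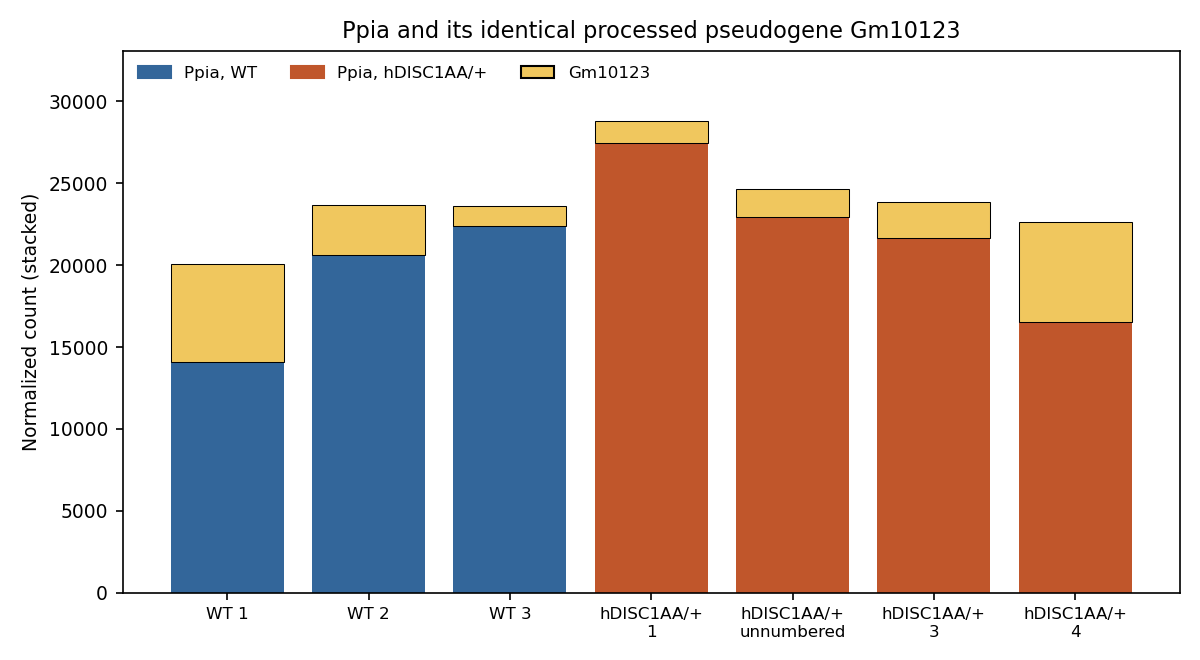
Normalized counts of Ppia (blue in WT, orange in hDISC1AA/+) with those of its processed pseudogene Gm10123 stacked above (yellow), 1 bar per library. Gm10123 is tallest in WT replicate 1 (5996) and hDISC1AA/+ replicate 4 (6079.8), where Ppia is lowest.

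Ywhaz varied little and was lowest in the libraries that stood apart. It encodes the zeta isoform of a family of adaptor proteins that bind phosphorylated serines and threonines in signalling proteins, and lies on the minus strand of chromosome 15 (36770770 to 36796929). It had 37426, 43896 and 41915 normalized counts in WT, and 35520.5 (replicate 1), 40338 (unnumbered), 43095 (replicate 3) and 42819 (replicate 4) in hDISC1AA/+. WT replicate 1 and hDISC1AA/+ replicate 1 were the lowest of their groups, and the other 5 libraries lay between 40338 and 43896. Ywhaz too has pseudogene copies. Gm4202 matched it over 733 bases at 99.9% identity and Gm14287 over 108 bases at 100%. Together these took 1.32% to 3.54% of the joint reads, and adding them left the coefficient of variation at 7.82%, against 7.74% without. Gm14287 alone had 25.7 and 14.8 normalized counts in the libraries that stood apart and 129 to 244 in the other 5.

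Tbp was above or below its mean together with Ywhaz in 5 of 7 libraries. It encodes the TATA-binding protein, a general transcription factor that helps place RNA polymerase II at promoters, and lies on the plus strand of chromosome 17 (15499888 to 15528379). It had 940.9, 1213 and 1042 normalized counts in WT, and 778.5 (replicate 1), 1087 (unnumbered), 990.0 (replicate 3) and 1097 (replicate 4) in hDISC1AA/+. The lowest library was again hDISC1AA/+ replicate 1, and the groups overlapped. The count of Tbp has a limit of its own: the gene Pdcd2 lies on the opposite strand with all 2582 of its exon bases inside exons annotated for Tbp. Pdcd2, named after its values were seen, was listed with 0 reads in all 7 libraries. The labels do not describe the libraries as strand-specific, and whether reads from Pdcd2 were counted for Tbp or dropped was not tested. No exon of the other 7 genes overlapped an exon of a protein-coding gene.

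The metabolic enzymes were highest in WT replicate 1. Sdha encodes the flavoprotein subunit of succinate dehydrogenase, which works both in the citric acid cycle and in the respiratory chain of mitochondria, and lies on the minus strand of chromosome 13 (74322254 to 74350280). It had 16481, 14419 and 13940.2 normalized counts in WT, and 15224 (replicate 1), 13268 (unnumbered), 14278 (replicate 3) and 14719 (replicate 4) in hDISC1AA/+. All 7 libraries lay within 1.24-fold of each other. Hprt encodes hypoxanthine-guanine phosphoribosyltransferase, which recycles purines, and is on the X chromosome (52988137 to 53021659, plus strand). It had 5204, 4536 and 4112 in WT, and 3845 (replicate 1), 4497 (unnumbered), 4464 (replicate 3) and 4591 (replicate 4) in hDISC1AA/+. The highest and the lowest values were again those of the libraries that stood apart.

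Gusb was the least abundant. It encodes beta-glucuronidase, an enzyme that degrades glycosaminoglycans in lysosomes, and lies on the minus strand of chromosome 5 (129989011 to 130003049). It had 565.4, 457.2 and 467.5 normalized counts in WT, and 496.1 (replicate 1), 514.9 (unnumbered), 469.0 (replicate 3) and 534.9 (replicate 4) in hDISC1AA/+. WT replicate 1 was the highest and the other 6 libraries were mixed by genotype. With 419 to 881 reads per library, counting error alone gives a coefficient of variation of 4.51%, where 7.98% was observed. For Tbp, with 736 to 1466 reads, it gives 3.16%, and for the other 6 genes 1.51% or less.

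**Figure D2:**
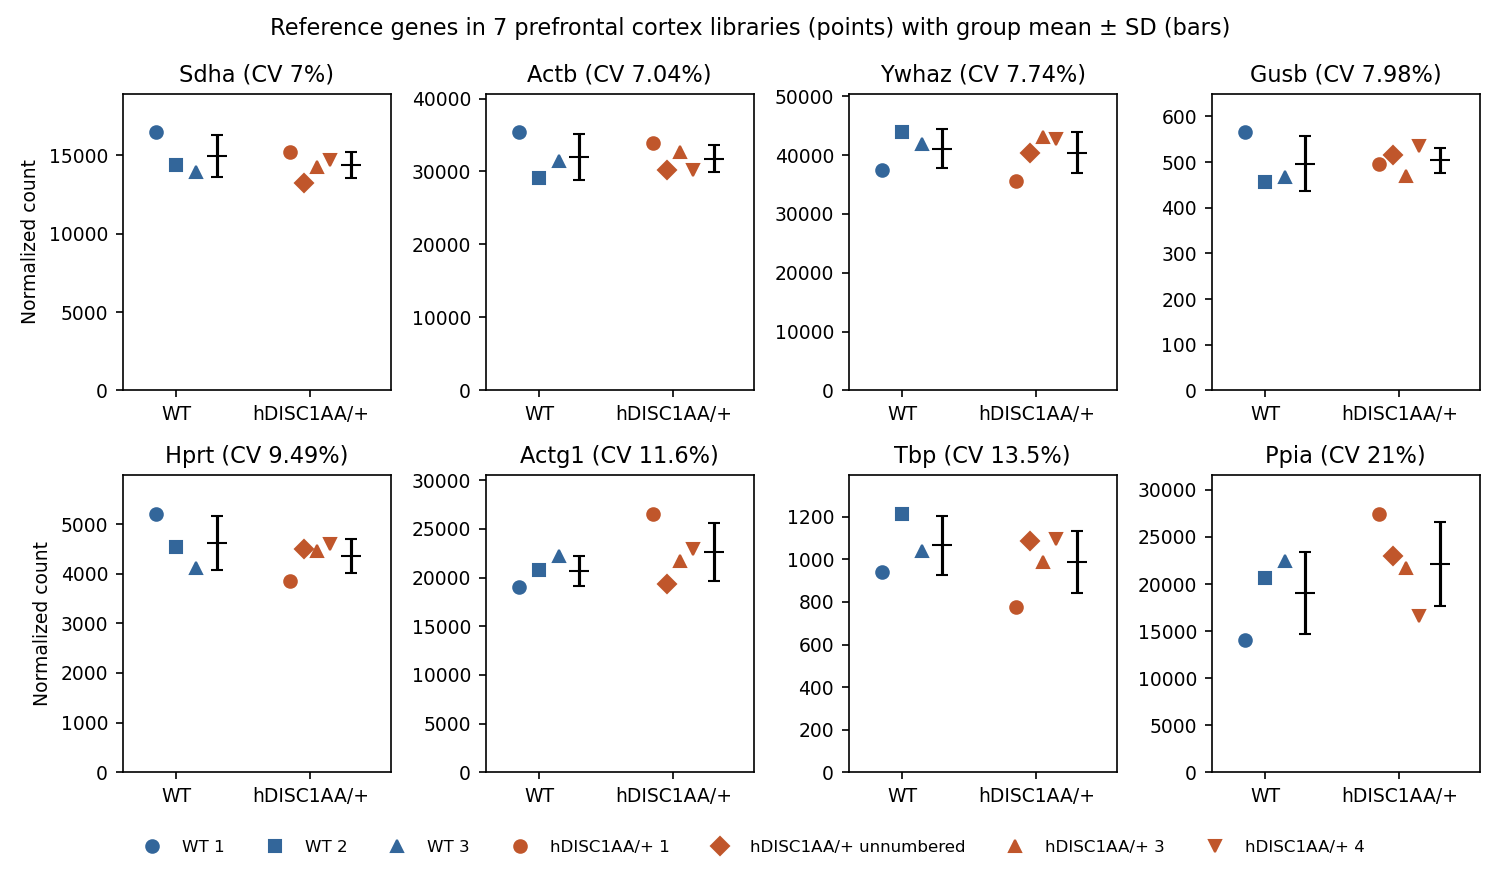
Normalized counts (vertical axis, from 0) of the 8 genes in each of 3 WT (blue) and 4 hDISC1AA/+ (orange) libraries, with the group mean ± SD in black; CV is the coefficient of variation over the 7 libraries, and panels are in its order. The groups overlap in every panel, and Ppia has the widest spread (14093 to 27444).

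Levels can be set side by side only per length, here as normalized count per kilobase of 1 coding transcript per gene. On that scale Ppia (17797 ± 3743, SD over 7 libraries) and Actb (16584 ± 1168) were highest. Their order held in 5 of 7 libraries, so they did not differ beyond their spread. Ywhaz (12383 ± 958.5) and Actg1 (11160 ± 1297) came next, in that order in 6 of 7 libraries and with overlapping ranges. Sdha (5041 ± 353), Hprt (3463 ± 329), Tbp (540.0 ± 72.8) and Gusb (186 ± 14.9) followed, each with a range that did not touch that of its neighbours. The most and the least abundant of the set thus lay far apart, with Tbp 2.90 times as high as Gusb and Hprt 6.41 times as high as Tbp. These ratios depend on the transcript chosen. For Tbp it has 1891 bases, while all exons annotated for the gene cover 13576, some shared with Pdcd2. Reads assigned to the copies of Ppia are not in these values.

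Ranked by the coefficient of variation (SD divided by mean, over all 7 libraries whatever their genotype), the order from steady to variable was Sdha (7.0%), Actb (7.04%), Ywhaz (7.74%), Gusb (7.98%), Hprt (9.49%), Actg1 (11.6%), Tbp (13.5%) and Ppia (21%). The first 4 lay within 1 percentage point of each other. Over the 17670 genes tested the median was 15.9%, and 7 of the 8 genes lay below it, all but Ppia. Each gene was also set beside the genes within 2-fold of its own mean, that is, of like level. Of those, 14.5% varied less than Gusb, 17.1% less than Actb, 18% less than Sdha, 20.6% less than Ywhaz and 39.7% less than Hprt. Actg1 (60.4%), Tbp (60.4%) and Ppia (91.8%) varied more than the median gene of like level. These are descriptions of 7 libraries and carry no test.

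The order depended on the libraries that stood apart and on a correction for GC content and length. Without WT replicate 1 and hDISC1AA/+ replicate 1 the coefficient of variation was 3.20% for Ywhaz, 3.93% for Sdha, 4.27% for Hprt, 4.45% for Actb, 6.51% for Actg1, 6.98% for Gusb, 7.64% for Tbp and 12.2% for Ppia. Ywhaz went from rank 3 to rank 1 and Gusb from rank 4 to rank 6, while Tbp and Ppia stayed last. With the GC and length correction Ywhaz (4.29%) had rank 1 and Tbp moved from rank 7 to rank 2 (5.57%). Sdha moved from rank 1 to rank 6 (9.96%) and Hprt from rank 5 to rank 7 (14.8%), while Ppia stayed last (20.1%). Over 14 alternatives of scaling, correction and left-out libraries, Sdha was the steadiest in 9, Ywhaz in 3 and Actb in 2. Ppia was the most variable in 13 of the 14. In the remaining one, with the copies added, it had rank 6 and Tbp was last.

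**Figure D3:**
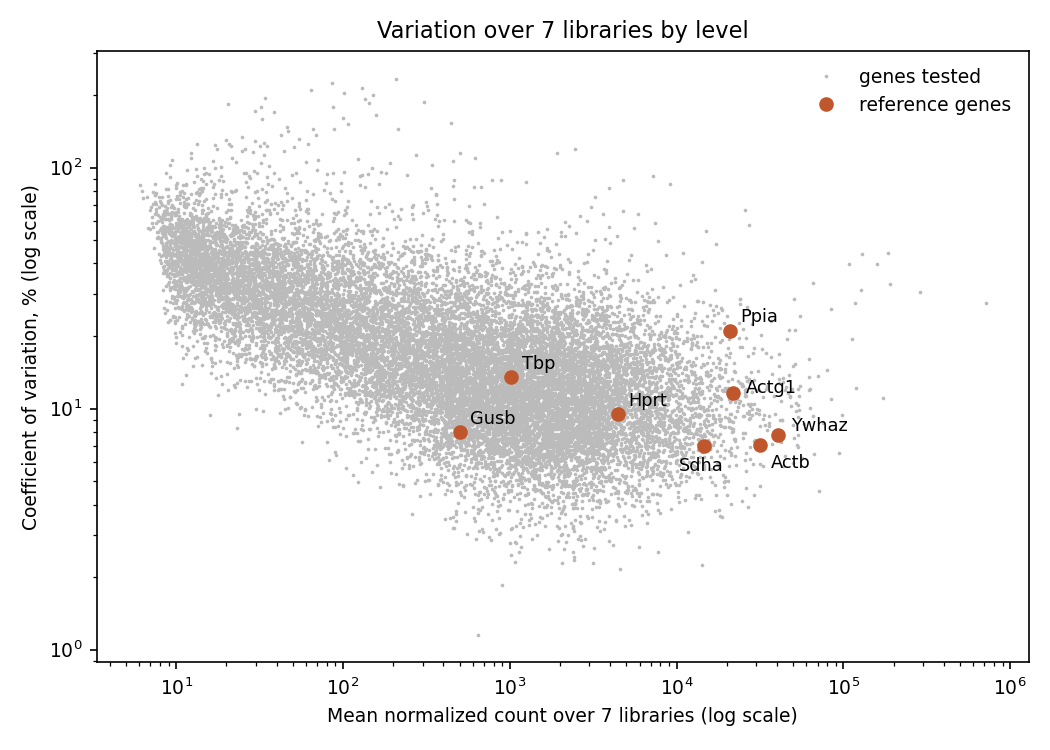
Coefficient of variation over the 7 libraries (log scale) against the mean normalized count (log scale) for the 17670 genes tested (grey) and the 8 reference genes (orange). Sdha, Actb and Ywhaz lie low at their level and Ppia lies above most genes of its level.

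Within a library the 8 genes did not deviate together. On the log2(normalized count + 1) scale, deviations from each gene's own mean in WT replicate 1 ran from -0.53 for Ppia to 0.23 for Hprt, with Actb (0.16), Sdha (0.18) and Gusb (0.18) above and Actg1 (-0.18), Ywhaz (-0.12) and Tbp (-0.11) below. In hDISC1AA/+ replicate 1 they ran from -0.38 for Tbp to 0.43 for Ppia, with Actg1 (0.29), Actb (0.09) and Sdha (0.06) above and Hprt (-0.21), Ywhaz (-0.19) and Gusb (-0.01) below. The span between the highest and the lowest of the 8 was 0.76 and 0.81 in these, and 0.18 to 0.42 in the other 5 libraries. Actb and Sdha were above their means in both of these libraries, and Ywhaz and Tbp below. Marker or mitochondrial levels, given above, also set these libraries apart, and the part of those levels in the deviations was not tested.

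Averaged over the 8, the deviations nearly cancelled under the deposited scaling. The mean of the 8 per library ran from -0.026 in WT replicate 1 to 0.011 in WT replicate 2, a range of 0.036 (1.03-fold). The range was 0.178 with upper quartile scaling, 0.187 with the GC and length correction and 0.245 with every library scaled to the same total of reads. Under the deposited scaling the mean of the 8 was -0.0065 ± 0.018 in WT and 0.0049 ± 0.0075 in hDISC1AA/+ (mean ± SD, n = 3 and 4). On a linear scale the mean of the 8 differed from its average by -1.77% in WT replicate 1 and by less in the other 6. Without Ppia the range was 0.10, from -0.050 in hDISC1AA/+ replicate 1 to 0.051 in hDISC1AA/+ replicate 4, so the closeness of the mean of 8 to the deposited scaling rested in part on Ppia offsetting the others.

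**Figure D4:**
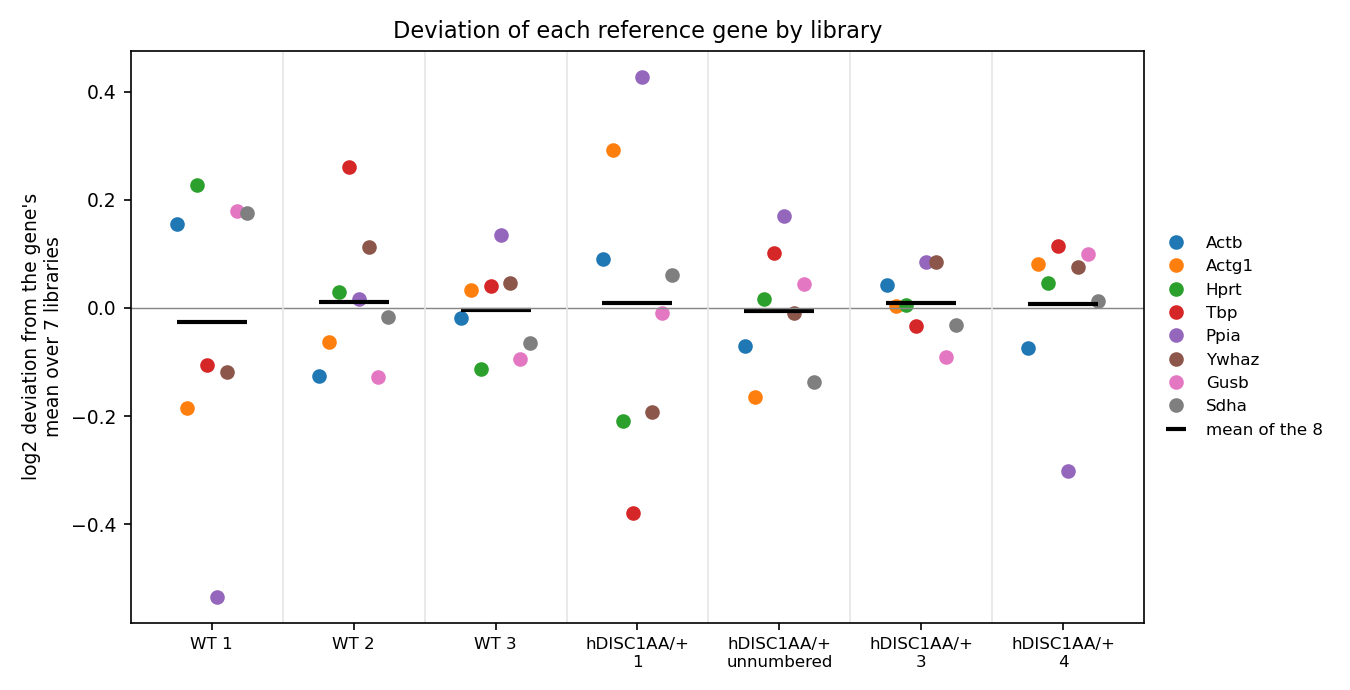
Deviation of each gene from its own mean over the 7 libraries, on the log2(normalized count + 1) scale, by library; black bars are the mean of the 8. The genes spread furthest in WT replicate 1 (span 0.76) and hDISC1AA/+ replicate 1 (0.81), while the mean stays between -0.026 and 0.011.

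The ratio of 2 genes in the same library does not depend on how libraries are scaled. Its SD over the 7 libraries, on the log2 scale, was taken for all 28 pairs. The steadiest pair was Actb with Sdha (0.074), whose ratio stayed within 1.13-fold, followed by Gusb with Sdha (0.10) and Actb with Gusb (0.11). Tbp with Ywhaz (0.12) had rank 5, although neither was steady against Sdha (0.27 and 0.19). The paralogs Actb and Actg1 had rank 9 (0.18), and their ratio was lowest in hDISC1AA/+ replicate 1 and highest in WT replicate 1. The least steady pair was Hprt with Ppia (0.45), whose ratio covered 2.64-fold. All 6 pairs from rank 23 to 28 held Ppia.

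The mean of a gene's pairwise SDs is the stability measure M of the geNorm method. M was 0.190 for Sdha, 0.196 for Actb, 0.201 for Gusb, 0.207 for Ywhaz, 0.214 for Hprt, 0.241 for Actg1, 0.269 for Tbp and 0.376 for Ppia. Leaving out the least steady gene each time removed Ppia, Tbp, Actg1, Ywhaz, Hprt and Gusb in turn, and left Actb and Sdha. Without the libraries that stood apart Ywhaz was first (0.101), followed by Sdha (0.102), and Ppia again last (0.231).

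None of the 8 genes differed detectably between hDISC1AA/+ and WT. The comparison used limma across all 17670 genes tested, and 0 of these (0%) passed an adjusted p of 0.05. At the unadjusted limit of 0.05 there were 431 (2.44%). Count models on the recovered reads also called 0 genes: edgeR had 452 and DESeq2 604 below the same unadjusted limit. Of the 8 members 0 passed and 0 had an unadjusted p under 0.05. Groups that did not overlap were found for 5.04% of all genes and for 0 of the 8. The median log2 fold change of the 8 was -0.015, with 3 higher and 5 lower, against -0.0092 over all genes, with 8453 higher and 9217 lower.

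The largest difference was that of Ppia, with a log2 fold change of 0.22 (95% CI -0.23 to 0.68; limma adjusted p = 0.974), whose interval reached 1.6-fold. With its copies counted in, its group means were 22644 ± 1955 in WT and 25140.4 ± 2635 in hDISC1AA/+. Actg1 followed at 0.12 (-0.14 to 0.39; limma adjusted p = 0.974), and without the libraries that stood apart it was -0.012 and Ppia -0.090. The most negative was Tbp at -0.11 (-0.45 to 0.22; limma adjusted p = 0.975), then Hprt at -0.083 (-0.34 to 0.17) and Sdha at -0.055 (-0.27 to 0.16). Ywhaz was at -0.024 (-0.25 to 0.21), Gusb at 0.025 (-0.25 to 0.30) and Actb at -0.0064 (-0.22 to 0.21). The adjusted p of these 5 was 0.977 to 0.998 in limma.

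For 7 of the 8 genes, all but Ppia, the 95% CI lay within 1.5-fold in either direction, as it did for 54% of all genes. These intervals are not adjusted for the number of genes tested. A difference smaller than these intervals was not detectable with this number of libraries, and passing the adjusted limit would take a larger one still. No interval shows that a gene was equal in both genotypes. The signs of all 8 estimates depended on the scaling, the correction or the libraries used (closing section). Between Tbp and Ppia the fold changes lay 0.34 apart on the log2 scale, so in these 7 libraries the hDISC1AA/+ to WT ratio of another transcript would be 1.263 times as high when scaled on Tbp as when scaled on Ppia. That gap rested on the libraries that stood apart: without both, Tbp was at -0.089 and Ppia at -0.090. With array weights the order of the pair turned, with Tbp at -0.041 and Ppia at -0.079.

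**Figure D5:**
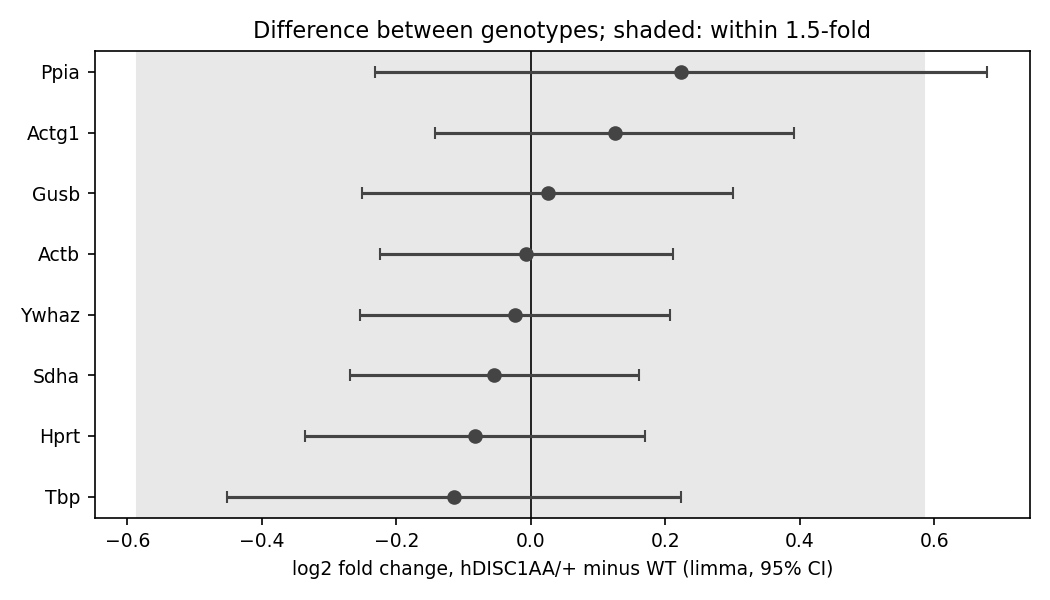
log2 fold change, hDISC1AA/+ minus WT, of the 8 genes (points) with the 95% CI of limma (bars); the shaded band is 1.5-fold in either direction. All intervals include 0, and only that of Ppia leaves the band (upper end 0.68).

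The families to which the 8 genes belong were described from lists that include the members themselves. In the actin family, 4 of 11 tested genes were higher and 7 lower in hDISC1AA/+, and 0 passed (median log2 fold change -0.0064). Its smallest p belonged to Acta2, the smooth muscle actin (log2 fold change 1.06, 95% CI -0.38 to 2.51). Acta2, itself one of the mural markers summed above, had 53.3 normalized counts in WT replicate 1, while the other 6 libraries had 279 to 482. The subunits Actr2 (-0.13) and Actr3 (-0.13) of the Arp2/3 complex, which branches actin filaments, came next. Of 19 actin-binding genes 5 were higher and 14 lower (median -0.044), with Cap2 (-0.17), Arpc5 (-0.22) and the filament-severing cofilin gene Cfl2 (-0.27) first by p.

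The adaptor family of Ywhaz had 3 genes higher and 4 lower of 7 (median -0.024, 0 passed). Its coefficients of variation were 5.34% for Ywhaq, 6.84% for Ywhab, 7.41% for Ywhae, 7.74% for Ywhaz, 10.4% for Ywhag, 12.8% for Ywhah and 22.2% for Sfn, which had few reads. By p, Ywhah (log2 fold change 0.20), Ywhae (-0.10) and Ywhag (-0.11) came first. Ywhaz was thus in the middle of its family.

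Around Sdha, the list of succinate dehydrogenase and the citric acid cycle had 2 of 19 genes higher and 17 lower (median -0.060), and 0 passed. Sdhaf4, an assembly factor (-0.32), Sucla2, a subunit of succinyl-CoA synthetase (-0.12), and Sdhaf2 (-0.12) were first by p. Sdhaf4 stood at 357 normalized counts in WT replicate 1, with the other 6 libraries at 145 to 183. The other subunits of succinate dehydrogenase were less steady than Sdha: the coefficient of variation was 16% for Sdhb, 11.1% for Sdhc and 12.8% for Sdhd. All 3 were highest in WT replicate 1, as Sdha was.

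The remaining families likewise held 0 genes past the threshold. Of 15 cyclophilins 6 were higher and 9 lower (median -0.032), with Ranbp2 (-0.30) and Ppig (-0.37) before Ppia by p. Ppig stood at 1558 normalized counts in hDISC1AA/+ replicate 1, with the other 6 libraries at 3352 to 3861, so that it was lowest in the library in which Ppia was highest. Of 16 tested genes of TBP and the TFIID complex, in which TBP works with TAF proteins, 6 were higher and 10 lower (median -0.068). Taf10 (0.49), Taf13 (-0.22) and Taf12 (-0.19) had the smallest p, and Taf10 had 1249 normalized counts in hDISC1AA/+ replicate 1 against 512 to 777 elsewhere. Of 13 purine salvage genes 5 were higher and 8 lower (median -0.054), with the guanine deaminase gene Gda (-0.32), the deoxycytidine kinase gene Dck (-0.24) and the AMP deaminase gene Ampd2 (0.20) first. Lysosomal hydrolases had 13 of 22 higher and 9 lower (median 0.040), with Idua (0.28) and Ids (-0.36) first by p.

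Other genes in use as references were compared with the 8. Of 33 classical ones found in the table, 10 were higher and 23 lower (median log2 fold change -0.043), and 0 passed. Their median coefficient of variation was 12.2%, from 4.97% to 59.2%, against 8.74% for the 8. The highest was that of Rpl19, which had 5027 normalized counts in WT replicate 1 and 1404 to 1756 elsewhere. Tfrc, the transferrin receptor (-0.34), Canx, the chaperone calnexin (-0.26), and Top1, a topoisomerase (-0.27), had the smallest p. Tfrc had 3532 to 5473 normalized counts in hDISC1AA/+ and 5172 to 5792 in WT, with overlap. In 11 genes listed for uniform expression across tissues, 5 were higher and 6 lower (median -0.026), and the median coefficient of variation was 8.55%. Emc7 (-0.18), Reep5 (-0.14) and Vps29 (-0.17) were first by p. Since members and lists were chosen with earlier results of these data known, these differences between lists carry no test.

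For each of the 8, the gene of most similar pattern was taken as the one with the smallest SD of the log2 ratio over the 7 libraries, among 12927 genes with a mean of at least 100. For Actb it was Snrpd3, a core protein of the spliceosome (SD 0.014), and for Sdha it was Ywhab (0.017), a paralog of Ywhaz. Snrpd3 had 2371, 1913 and 2048 normalized counts in WT, and 2243, 2002, 2159 and 2022 in hDISC1AA/+, in the order used above. It thus rose and fell with Actb from library to library at a much lower count. For Hprt it was Anapc10 (0.026), for Gusb Mmgt2 (0.027), for Ywhaz Senp1 (0.033), for Tbp Rpp40 (0.039), for Actg1 1700003M07Rik (0.043) and for Ppia Csf3r (0.058). These are the closest of 12927 candidates over only 7 libraries and are given as a description.

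The steadiest genes of the table were not among the 8 or the other listed reference genes. With a mean of at least 100, the lowest coefficients of variation were those of Nup188, a nuclear pore protein (1.16%), Atg14, an autophagy factor (1.85%), and Senp2, a SUMO protease (2.16%). Nup188 had 641.8, 658.0 and 633.1 normalized counts in WT, and 645.2, 647.7, 647.7 and 646.0 in hDISC1AA/+. All 7 libraries fell within a narrow band, narrower than that of any of the 8. These 3 were chosen for their low variation in these libraries, so the values describe the choice and support nothing further.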

How the data were processed

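Frozen prefrontal cortex was extracted with Trizol and sequenced from NEBNext Ultra RNA libraries, per the labels' protocols. The build mm10 (GRCm38), HISAT2 2.1.0, Trimmomatic 0.39, DESeq2 1.26.0 and HTSeq 0.6.1 stand in the submitters' processing notes, with no role or order. Annotation, strand setting and treatment of reads with several matches were not given in the sources used here. These deposited values are a signal proportional to reads: in all 7 columns 100% of the values above 0 were whole multiples of 1 step, within 0.01 reads, and dividing by it gave back whole reads. No column was left out. For 3 genes, with 0.012% to 0.0169% of the values, identifier and values stood on separate lines and were not used. Symbols, transcripts and coordinates come from GENCODE M21, which held 42545 of the 43626 identifiers.

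Genes at 10 or more in at least 3 libraries were tested by limma 3.58.1 (trend, robust) on log2(value + 1), two-sided, with Benjamini-Hochberg adjustment over all genes tested. Fold changes are on that scale. The calculations were checked on simulated counts. Alternatives were edgeR 4.0.16 and DESeq2 1.42.0 on recovered reads, array weights, other pseudocounts, filters and scalings, a GC and length correction, and left-out libraries. Copies were found by BLAST+ 2.17.0 between transcripts, at 95% identity over 100 bases. The members and lists were chosen with earlier results of these data known. Named are the 8 genes, up to 3 genes of each list by p (1 such gene is not reported here), the closest gene to each member, the 3 with the lowest coefficient of variation, and copies with reads. Of the listed symbols, 4 were not matched.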

Additional observations from a re-analysis of the deposited data

Results flagged for a closer look

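Among the 4 hDISC1AA/+ libraries, Hprt in replicate 1 stood apart from the rest: it had 3845 normalized counts, against 4464 in replicate 3, 4497 in the unnumbered library and 4591 in replicate 4. Its gap to the nearest library was 0.829 of the range of the 4, just past the limit for a group of that size. Chance puts about 1 in 20 groups past it, and 11 such groups were examined. The same library had the lowest mitochondrial share of reads (1.94%), and the part of that in the value was not tested.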

How the results depend on the processing

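No gene passed the threshold under any of 21 alternatives, over all genes or among the 8. Genes at an unadjusted p under 0.05 numbered 431, against 1823 with array weights and 909 without a filter, 875 without WT replicate 2, 275 without WT replicate 1 and 218 without the unnumbered library. For the 8 log2 fold changes, 136 of 168 values under alternatives kept their sign and 32 did not, with the smallest adjusted p at 0.685. The sign turned with array weights for Actb (0.0079), Actg1 (-0.011), Hprt (0.087), Ppia (-0.079) and Sdha (0.0089). With upper quartile scaling it turned for Actb (0.052), Ywhaz (0.034) and Sdha (0.0034), and with scaling to equal totals for Actb (0.079), Hprt (0.0027), Ywhaz (0.062) and Sdha (0.031). With equal totals apart from mitochondrial genes it turned for Actb (0.064), Ywhaz (0.046) and Sdha (0.015), and with the GC and length correction for Hprt (0.031), Tbp (0.034) and Gusb (-0.048). Without WT replicate 1 and hDISC1AA/+ replicate 1 it turned for Actb (0.038), Actg1 (-0.012), Hprt (0.065) and Ppia (-0.090), while Gusb was at 0.129. With 1 library left out the ranges were -0.071 to 0.069 for Actb, -0.16 to 0.0066 for Hprt, -0.089 to 0.037 for Ywhaz, -0.031 to 0.12 for Gusb, -0.10 to 0.018 for Sdha, 0.045 to 0.20 for Actg1, -0.20 to -0.0039 for Tbp and 0.020 to 0.36 for Ppia. The median coefficient of variation of the 8 (8.74%) was 7.60% with upper quartile scaling, 5.48% without both libraries and 7.13% to 9.54% with 1 left out. The median M (0.210) was 0.127 without both, 0.187 with copies added, 0.175 without Ppia and 0.175 to 0.226 with 1 left out. The range of the mean of the 8 (0.036) was 0.048 with TMM scaling, 0.178 with upper quartile scaling, 0.245 with equal totals, 0.184 with mitochondrial genes left out of them, 0.187 with the GC and length correction, 0.0169 without both, 0.0605 with copies, 0.101 without Ppia and 0.0169 to 0.0364 with 1 left out. The cause of these shifts was not tested. The sums with copies and the values without Ppia were chosen after seeing the data. No paired analysis was possible because the labels number no mice, litters or days across the groups. Depth limits Gusb and Tbp most.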
